A study of Mus musculus with 2 samples.

Results

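The 7 genes described here encode small membrane proteins of antiviral defence: Ifitm1, Ifitm2, Ifitm3, Ifitm6 and Ifitm10 of the interferon-induced transmembrane family, Bst2 (tetherin) and Ly6e. They were chosen by name as rows of the feature table, and all 7 of 7 were found among its 27998 genes, each with 1 row. CD45-positive cells were sorted alive from B16F10 tumors, a mouse melanoma line grown under the skin of C57BL/6 mice, at day 14 after injection. Control mice were Usp18f/f, with both copies of Usp18 flanked by loxP sites and no Cre. The other mice were Usp18f/f LysM-Cre, in which Cre is driven from the Lyz2 locus and so acts in monocytes, macrophages, neutrophils and part of the dendritic cells. Cells of 4 tumors were pooled into 1 library of droplet 3′ single-cell RNA sequencing for each genotype. Each difference between the genotypes below is therefore a difference between 2 pools, with no replicate check and no test, and every interval covers counting error only.

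The control library held 7754 barcodes with 43412346 transcript molecules counted by unique molecular identifier (UMI), and the other library 6063 barcodes with 48167632 UMIs. The 3′ counts of Usp18 went against the second label: its level in mononuclear phagocytes was 18.9 counts per 1000000 UMIs (CPM) in control cells and 95.3 CPM in Usp18f/f LysM-Cre cells. Which exons were flanked is not given in the sources used here, so a 3′ count may lie outside the deleted part, and the second library is called the library labelled knockout throughout. Pairs of values joined by "against" give the control library first and the library labelled knockout after it. Lyz2, the locus that carries Cre, stood at 9247 against 17.1 CPM in the same cells. The pools also differed in sex: of the immune cells with Xist or Y-linked UMIs but not both, 36.1% against 85.8% carried Xist. Ptprc, which encodes CD45, was detected in 86.2% against 81.3% of kept cells, and melanoma cells made up 2.18% against 6.55% of them. The 2 libraries shared 8 barcode sequences.

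IFITM proteins sit in the plasma membrane and in endosomes and hinder the fusion of viral envelopes with the host membrane. Tetherin holds budding enveloped virions at the cell surface, and Ly6e is a lipid-anchored surface protein of the Ly6 family that also restricts some viruses. Type I interferon induces many of these genes through ISGF3, which binds interferon-stimulated response elements, but several of them are also transcribed without interferon in particular cell types. Bst2, for example, is the antigen of antibodies that mark mouse plasmacytoid dendritic cells.

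Ifitm1, Ifitm2, Ifitm3 and Ifitm6 lie together in 63.1 kb of chromosome 7 (140954837 to 141017924, GRCm38, GENCODE M21), and Ifitm10 lies 1.31 Mb away on the same chromosome. Within the cluster Ifitm2 runs from 140954837 to 140955987 (minus strand), Ifitm1 from 140967221 to 140969825 (plus), Ifitm3 from 141009586 to 141010770 (minus) and Ifitm6 from 141015699 to 141017924 (minus). Ifitm10 runs from 142325837 to 142373753 (minus), and all 7 genes are annotated as protein coding. Bst2 lies on chromosome 8 (71534255 to 71537456, minus strand) and Ly6e on chromosome 15 (74955051 to 74959905, plus strand). The proximal promoters of 6 of the 7 genes, all but Ly6e, were found in a RefSeq table (GRCm38.p6). They run from 250 bases before to 50 bases after each start. Those of the genes on which the results below turn are printed 5′ to 3′ on the gene's strand, with capitals for 2 kinds of match. The first is the core of an interferon-stimulated response element (GAAA, any 2 bases, GAAA, on either strand). The second is the core of a gamma-activated site (TTC, any 3 bases, GAA), and the matches overlap in Bst2 and Ifitm3.
Bst2, chr8:71537423-71537722, minus strand: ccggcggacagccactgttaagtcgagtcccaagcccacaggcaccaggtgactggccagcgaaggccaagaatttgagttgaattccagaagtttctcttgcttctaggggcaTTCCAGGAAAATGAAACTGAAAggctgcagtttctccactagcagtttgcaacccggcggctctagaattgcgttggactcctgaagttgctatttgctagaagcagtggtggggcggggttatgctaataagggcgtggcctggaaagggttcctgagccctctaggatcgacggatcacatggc
Ifitm3, chr7:141010695-141010994, minus strand: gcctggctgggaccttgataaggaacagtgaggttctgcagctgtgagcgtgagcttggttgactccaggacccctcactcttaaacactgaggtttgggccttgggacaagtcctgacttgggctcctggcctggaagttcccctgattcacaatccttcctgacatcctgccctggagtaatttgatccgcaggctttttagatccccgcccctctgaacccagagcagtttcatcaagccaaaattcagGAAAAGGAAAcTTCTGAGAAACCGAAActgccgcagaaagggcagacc
Ifitm2, chr7:140955912-140956211, minus strand: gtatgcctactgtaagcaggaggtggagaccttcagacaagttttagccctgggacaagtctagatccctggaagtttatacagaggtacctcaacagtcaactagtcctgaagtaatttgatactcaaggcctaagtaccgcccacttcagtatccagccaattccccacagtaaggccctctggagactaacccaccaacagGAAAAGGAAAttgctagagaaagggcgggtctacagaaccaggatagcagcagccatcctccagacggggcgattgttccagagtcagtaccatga
Ifitm1, chr7:140967826-140968125, plus strand: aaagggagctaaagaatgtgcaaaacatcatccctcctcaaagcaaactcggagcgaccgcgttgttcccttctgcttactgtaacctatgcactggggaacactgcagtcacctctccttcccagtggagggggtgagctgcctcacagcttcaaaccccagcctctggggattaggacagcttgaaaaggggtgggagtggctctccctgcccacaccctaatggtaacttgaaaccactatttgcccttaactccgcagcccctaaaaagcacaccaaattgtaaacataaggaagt

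The window of Bst2 held 2 matches to the response element core, which began 130 and 124 bases before the start, and that of Ifitm3 held 2, at bases 3 and 20 after it. Ifitm2 had 1, at 46 bases before the start. Ifitm1, Ifitm6 and the 3 windows of Ifitm10 had none. The windows of Ifitm1 (140967826 to 140968125) and Ifitm6 (141016843 to 141017142) lie inside the gene spans given above. The 5′ ends of those 2 spans were therefore not searched. Bst2 (136 bases before the start), Ifitm3 (at base 14) and Ifitm6 (10 bases before the start) had 1 match each to the gamma-activated core. Of 32851 promoter windows of the same length in the table, 3.44% held the response element core and 8.30% the gamma-activated core. Of the 40 names of an interferon list used below, 30 had a window, and 16 of those held the response element core. A match describes letters only and is no evidence of binding.

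Reads from the 3′ ends cannot always tell the family members apart. Of the 50-base stretches in the last 500 bases of the annotated transcripts of Ifitm2, 41.9% also occurred in Ifitm3 or in unnamed gene models. The share was 14.0% for Ifitm3, 11.8% for Ifitm1 and 7.31% for Ifitm10, and 0 for Ifitm6, Bst2 and Ly6e. How the authors' counting treated such reads is not given in the sources used here, so the split of counts among Ifitm1, Ifitm2 and Ifitm3 is uncertain to that extent.

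Barcodes were assigned to 11 classes by marker genes that include none of the 7, and each class is named after its markers. Levels in each class are UMIs of the gene per 1000000 UMIs of the class. Classes with at least 50 cells in a library were ranked, which left out the 22 neutrophils of the library labelled knockout. The genes fell into distinct patterns across classes, described first within the control library and then beside the other.

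Bst2 was highest in plasmacytoid dendritic cells (pDC), the specialised producers of type I interferon. Its level there was 3258 CPM (Poisson 95% interval 3115 to 3406) against 3916 CPM (3704 to 4138). At an equal depth of 1000 UMIs per cell, 95.3% against 97.0% of pDC carried a Bst2 UMI, whereas B cells, among the lowest classes, had one in 3.38% against 5.73%. Median depths before thinning were 4702 against 4938 UMIs in pDC and 1495 against 1763 UMIs in B cells. The next class, macrophages, held 344 CPM in the control library, and the pDC level was 22.0 times that of the median class. Although pDC made up 1.99% of kept control cells, they held 22.5% of all Bst2 UMIs, beside 31.3% in macrophages. In the library labelled knockout pDC were 1.32% of kept cells and held 6.18%, beside 42.2% in macrophages and 23.7% in monocytes. In control cells the order below macrophages was cDC2 and cDC1 (conventional dendritic cells), melanoma, monocytes, migratory dendritic cells, T cells, NK cells, B cells and neutrophils, from 196 down to 13.5 CPM. Of these, cDC2, cDC1 and melanoma did not differ between neighbours beyond counting error, nor did monocytes and migratory dendritic cells, nor T, NK and B cells in turn.

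Ly6e was expressed across all leukocyte classes and was nearly absent from melanoma cells. Its level was highest in pDC, at 2454 against 2374 CPM, and next in B cells, at 1999 against 1990 CPM. At equal depth 84.3% against 86.9% of B cells carried a Ly6e UMI. Among T cells it was highest in the Foxp3-positive ones, at 1505 against 1644 CPM. Other Cd4-positive cells held 822 against 886 CPM and Cd8-positive cells 552 against 619 CPM. Melanoma cells held 9.11 against 12.9 CPM. Monocytes came next in control cells at 956 CPM, followed by cDC2 and T cells (789 and 778 CPM), NK cells (656 CPM), macrophages and cDC1 (574 and 562 CPM), neutrophils (274 CPM) and migratory dendritic cells (141 CPM). Of these neighbours, cDC2 with T cells and macrophages with cDC1 did not differ beyond counting error. The pDC level was 3.74 times the median class, the flattest pattern after that of Ifitm2, whose highest class stood at 2.78 times the median.

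Ifitm3 and Ifitm2 were genes of the myeloid classes and of melanoma cells, with little signal in lymphocytes. Ifitm3 was highest in monocytes, at 2516 CPM in the control library, followed by cDC2 at 2248 CPM and macrophages at 873 CPM. Monocytes alone held 46.7% of its UMIs, and 81.1% of control monocytes but 1.76% of control B cells carried one at equal depth. Ifitm2 was highest in neutrophils, at 1363 CPM, then in cDC2 at 1066 and monocytes at 957 CPM. Below macrophages, Ifitm3 stood at 633 CPM in cDC1, 468 CPM in migratory dendritic cells and 447 CPM in neutrophils, the last 2 within counting error of each other. Ifitm2 stood at 608 CPM in cDC1 and 582 CPM in migratory dendritic cells, again within counting error, and at 490 CPM in macrophages. Melanoma cells held 336 CPM of Ifitm3 and 269 CPM of Ifitm2. In control T, NK and B cells and in pDC both genes lay between 11.7 and 38.5 CPM.

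Ifitm1 and Ifitm6 were narrower. Among the ranked classes Ifitm1 was highest in cDC2, at 1189 against 1703 CPM, and 46.0% against 43.1% of all its UMIs came from these cells. It was uneven among them: at equal depth 28 of 272 control cDC2 held 59.5% of the UMIs and 22 of 215 held 58.9% in the library labelled knockout, with a median of 0 UMIs per cell in both. Neutrophils followed with 856 CPM in the control library, and the 22 unranked ones of the library labelled knockout held 3958 CPM. Control migratory dendritic cells held 478 CPM, followed by monocytes and cDC1 (190 and 178 CPM, within counting error), while macrophages held 20.1 CPM. In lymphocytes, pDC and melanoma cells the control level was at most 8.42 CPM. Within monocytes it was not a general feature: 10 cells held 54.2% of the 1164 control UMIs, and the 48 monocytes that clustered with cDC2 held 58.4%. The control cDC2 level of Ifitm1 was 59.2 times the median class (log2 5.57), and with cells limited to 5% mitochondrial UMIs the log2 value was 2.998. That limit left 7 control pDC and 26 control melanoma cells, under the 50 needed for ranking, so the median was taken over fewer classes. The lower value therefore cannot tell whether the level in cDC2 changed. Ifitm6 was a monocyte gene, at 268 CPM in control monocytes and 16.4 CPM in control macrophages, and monocytes held 66.6% of its control UMIs. Next came cDC2 and neutrophils, at 181 and 167 CPM and within counting error of each other. Within monocytes it was highest in a cluster led by Ace, Adgre4 and Treml4, genes of patrolling monocytes, at 562 against 619 CPM (299 against 238 cells).

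Ifitm10 stood apart from the rest of its family. It was detected in NK cells, at 75.0 against 70.3 CPM (ratio 0.937, 0.629 to 1.39), and in T cells, at 28.7 against 22.8 CPM (0.795, 0.589 to 1.07). NK cells held 24.7% and T cells 57.5% of its control UMIs. Among control T cells its level was 36.7 CPM (43 UMIs) in those assigned to no Cd8, Cd4 or Foxp3 subset, 35.3 CPM (76 UMIs) in Cd8-positive cells and 10.4 CPM (6 UMIs) in Cd4-positive cells. Control monocytes had 2 UMIs, at 0.327 CPM, and control B cells had 0, which allows up to 1.35 CPM. With 381 UMIs in all kept cells it was the least counted of the 7.

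**Figure D1:**
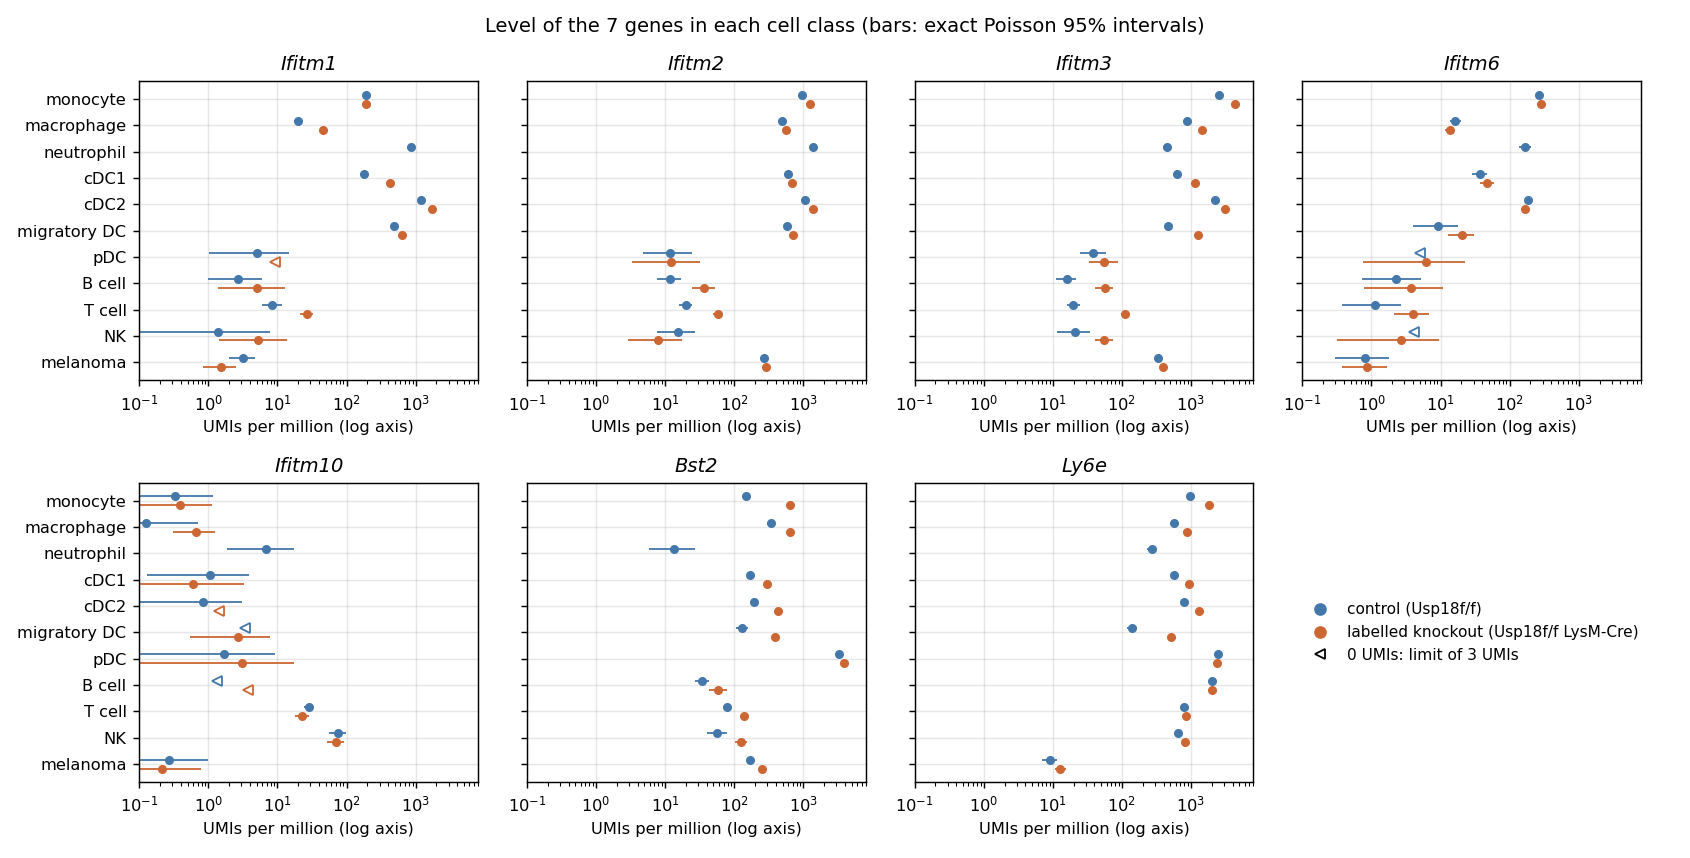
Each panel shows 1 gene, with its level in CPM on a log axis for each cell class, in the control library (blue) and the library labelled knockout (orange). Bars are exact Poisson 95% intervals, clipped at 0.1, and open triangles mark 0 UMIs at the limit that 3 UMIs would give. Bst2 peaks in pDC (3258 and 3916), Ly6e in pDC and B cells, Ifitm3 in monocytes, Ifitm1 in cDC2, and Ifitm10 in NK and T cells.

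Across the 21 class-by-library sums, the levels of Ifitm2 and Ifitm3 went together most closely of the member pairs (Pearson's r of log2(CPM + 5) 0.94), and those of Ifitm1 and Ifitm6 had an r of 0.83. Bst2 with Ly6e had an r of 0.24, and Ifitm10 was negative with each of the other 4 family members. Of 12119 genes outside the set, Ifitm10 was closest to Crtam, Eomes and Eya2 (r 0.98, 0.98 and 0.97), the first 2 known from cytotoxic lymphocytes (Eomes is also one of the NK markers of the gate). Bst2 was closest to Tmed3 (0.92) and Sec24d (0.89), genes of secretory transport, and Ly6e to 9930111J21Rik2 (0.96), Il10ra (0.93) and Trim30a (0.92), the last of which is in the interferon list. Ifitm3 was closest to Lgals3 (0.95), Ifitm6 to Gpr141 (0.96), Ifitm2 to Ralb (0.94) and Ifitm1 to Orai1 (0.92). The points share libraries and differ in depth, and the values are a description without a test.

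The second question was how far these levels differed between the genotypes. In mononuclear phagocytes, the sum of monocytes and macrophages (1810 control cells and 2625 of the library labelled knockout), Bst2, Ly6e and Ifitm3 were higher in the library labelled knockout. The summed levels of Ifitm1, Ifitm2 and Ifitm6 differed less, but for Ifitm1 the parts of the sum differed. In monocytes Ifitm1 stood at 190 against 189 CPM, a ratio of 0.995 (0.920 to 1.08). It was 2.24-fold higher in macrophages, but few cells made up much of that signal. The 10 macrophages richest in it accounted for 64.6% of 158 UMIs against 53.4% of 609. Ifitm1 stood at 93.8 against 130 CPM in phagocytes with Xist but at 91.2 against 17.9 CPM in those with Y-linked UMIs. In the latter the log2 ratio of Ifitm3 was -0.13, as described below with the sexes. Bst2 stood at 258 against 638 CPM, a ratio of 2.47 (95% interval 2.38 to 2.56). Ly6e stood at 741 against 1208 CPM, a ratio of 1.63 (1.59 to 1.67). Ifitm3 stood at 1592 against 2506 CPM, a ratio of 1.57 (1.55 to 1.60).

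For Ifitm2 the levels were 694 against 801 CPM (ratio 1.15, 1.13 to 1.18), for Ifitm1 94.5 against 97.3 CPM (1.03, 0.961 to 1.10), and for Ifitm6 126 against 112 CPM (0.887, 0.834 to 0.944). Ifitm10 had 3 and 12 UMIs and was not measured here, where a gene needed 20 UMIs over both libraries. The median log2 ratio of (CPM + 5) over the 6 measured members was 0.43, beside -0.03 over all 11835 genes tested. Of the 6, only Bst2 was at least 2-fold higher, as were 0.82% of all genes. All 39 measured genes of the interferon list were higher in the library labelled knockout, with a median of 1.46 (Isg15, which encodes a ubiquitin-like modifier, stood at 71.3 against 699 CPM), and 11 of 13 measured genes of an interferon-gamma-associated list, with a median of 0.57.

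For Bst2, Ly6e, Ifitm3 and Ifitm2, monocytes and macrophages shared the direction, and the sizes differed most for Bst2. The ratio of Ifitm6 was 1.07 (0.999 to 1.14) in monocytes and 0.825 (0.655 to 1.04) in macrophages, both within counting error of 1. In monocytes Bst2 went from 148 to 633 CPM (ratio 4.27, 3.98 to 4.59), the 1 member of 6 at least 2-fold higher, beside 1.66% of genes. The share of monocytes with a Bst2 UMI at equal depth was 12.3% (10.4 to 14.5) against 38.2% (35.5 to 40.9). Ly6e went from 956 to 1794 CPM and Ifitm3 from 2516 to 4347 CPM. In macrophages Bst2 went from 344 to 640 CPM (1.86, 1.78 to 1.95), Ifitm3 from 873 to 1458 CPM and Ly6e from 574 to 873 CPM, with 0 of 6 members past 2-fold, beside 0.64% of genes. Ifitm1, at 20.1 against 45.0 CPM, lay just under that mark on the scale of (CPM + 5), at 0.996 (log2). Bst2, which was lower in monocytes than in macrophages among control cells, thus stood at levels within counting error of each other in the library labelled knockout.

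A cluster of 252 monocytes of the library labelled knockout, with 3 control cells, carried 40693 CPM of interferon-list transcripts. It held 1847 CPM of Bst2, 6061 CPM of Ifitm3 and 2550 CPM of Ly6e, but 81.9 CPM of Ifitm6. Without that cluster the monocyte log2 ratio of Bst2 was 1.64 in place of 2.06.

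Conventional and migratory dendritic cells showed the same direction for Bst2, Ifitm3 and Ly6e. In cDC2, Bst2 stood at 196 against 436 CPM and was the 1 of 6 measured members past 2-fold (1.4% of genes), Ifitm3 at 2248 against 3080 CPM and Ly6e at 789 against 1284 CPM. In cDC1, Ifitm1 stood at 178 against 431 CPM and was the 1 of 6 past 2-fold (0.989% of genes). In cDC1 with Y-linked UMIs (117 against 27 cells) it stood at 224 against 137 CPM, and with Xist (18 against 109 cells) at 21.6 against 454 CPM. A few cells carried it: at equal depth 17 of 169 cells held 95.7% of its UMIs in the control library and 15 of 149 held 88.3% in the other. In the same class Bst2 stood at 169 against 299 CPM and Ifitm3 at 633 against 1128 CPM. In migratory dendritic cells, which leave the tumor for lymph nodes, 3 of 6 passed 2-fold, beside 4.74% of genes: Ly6e (141 against 513 CPM), Bst2 (130 against 392 CPM) and Ifitm3 (468 against 1244 CPM). In that class the summed level of the 8 monocyte markers (6 against 8 detected) was 144 against 1051 CPM and that of the 7 macrophage markers (7 against 7) 48.0 against 480 CPM, and their part in the result was not tested.

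The classes in which Bst2 and Ly6e were highest differed least. In pDC, Bst2 had a ratio of 1.20 (1.12 to 1.29) and Ly6e of 0.968 (0.886 to 1.06), and 0 of 3 measured members passed 2-fold, beside 1.02% of genes. In B cells Ly6e had a ratio of 0.996 (0.940 to 1.05). In pDC 12 of 20 measured interferon-list genes were higher in the library labelled knockout, and in B cells 25 of 26, with medians of 0.29 and 0.41.

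In the T, NK and B cell sums the low level of Ifitm3 was higher in the library labelled knockout, but not in every subset. Ifitm3 stood at 19.8 against 109 CPM in T cells, 20.8 against 55.7 CPM in NK cells and 15.8 against 56.3 CPM in B cells. Members past 2-fold were Ifitm1, Ifitm2 and Ifitm3 in T cells (3 of 6, beside 0.563% of genes), Ifitm3 and Bst2 in NK cells (2 of 4, 1.52%) and Ifitm2 and Ifitm3 in B cells (2 of 4, 0.367%). In T cells with Y-linked UMIs (484 against 77 cells) the log2 ratios were -0.31 for Ifitm2 and -0.27 for Ifitm3. For Ifitm1 in T cells the ratio was -0.12 without doublet removal. C1q transcripts, which are macrophage products, moved with them, from 0.350% to 0.719% of the phagocyte level in T cells, 0.439% to 1.05% in NK cells and 0.503% to 1.35% in B cells. The 7 macrophage markers together stood at 50.1 against 115 CPM in T cells, 44.5 against 138 CPM in NK cells and 366 against 475 CPM in B cells. When cells with a C1q UMI were left out, an alternative added after the data were seen, the log2 ratio of Ifitm3 was 1.94 in T cells, 1.05 in NK cells and 1.59 in B cells. In the T cells without a UMI of any macrophage or monocyte marker, 494 and 195 cells, Ifitm3 stood at 7.94 CPM (3.97 to 14.2) against 18.8 CPM (9.03 to 34.6), intervals that overlap. In B cells without such UMIs (588 and 137 cells) it stood at 19.9 CPM (11.6 to 31.8) against 35.5 CPM (15.3 to 70.0), which overlap too. The NK cells without them (43 and 21) had 2 and 0 Ifitm3 UMIs. The 8 monocyte markers that this filter also uses summed to 629 against 1054 CPM in T cells and 1165 against 1385 CPM in NK cells. In B cells they summed to 568 against 729 CPM. Whether those UMIs came from phagocytes or from the lymphocytes themselves was not tested, so the filter is no clean check for phagocyte RNA.

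Of the T cell subsets, Foxp3-positive cells had the highest Ifitm3 in the library labelled knockout, at 12.3 against 360 CPM. Among those without a phagocyte marker UMI (25 and 21 cells), it had 1 and 2 UMIs. Ifitm3 in Cd8-positive cells stood at 6.50 against 63.9 CPM, whereas in Cd4-positive cells it stood at 51.8 against 21.9 CPM (ratio 0.422, 0.144 to 1.03) and Ifitm2 at 44.9 against 32.8 CPM. The T cell value of Ifitm1 came mostly from the Foxp3-positive cells, which in the library labelled knockout held 69 of the 87 UMIs, with 0 in those without phagocyte marker UMIs. In Cd8-positive cells Ifitm1 stood at 9.29 against 8.07 CPM. Bst2 in T cells stood at 77.4 against 137 CPM, and at 67.2 against 92.2 CPM in the cells without phagocyte marker UMIs, with intervals of 54.2 to 82.3 and 68.2 to 122 CPM.

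Melanoma cells had 0 of 5 measured members past 2-fold, beside 0.122% of genes, with Bst2 at 168 against 248 CPM, Ifitm3 at 336 against 388 CPM and Ifitm2 at 269 against 284 CPM. Their median depth was 50409 against 3181 UMIs, and Ptprc was detected in 24.1% against 15.1% of them.

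**Figure D2:**
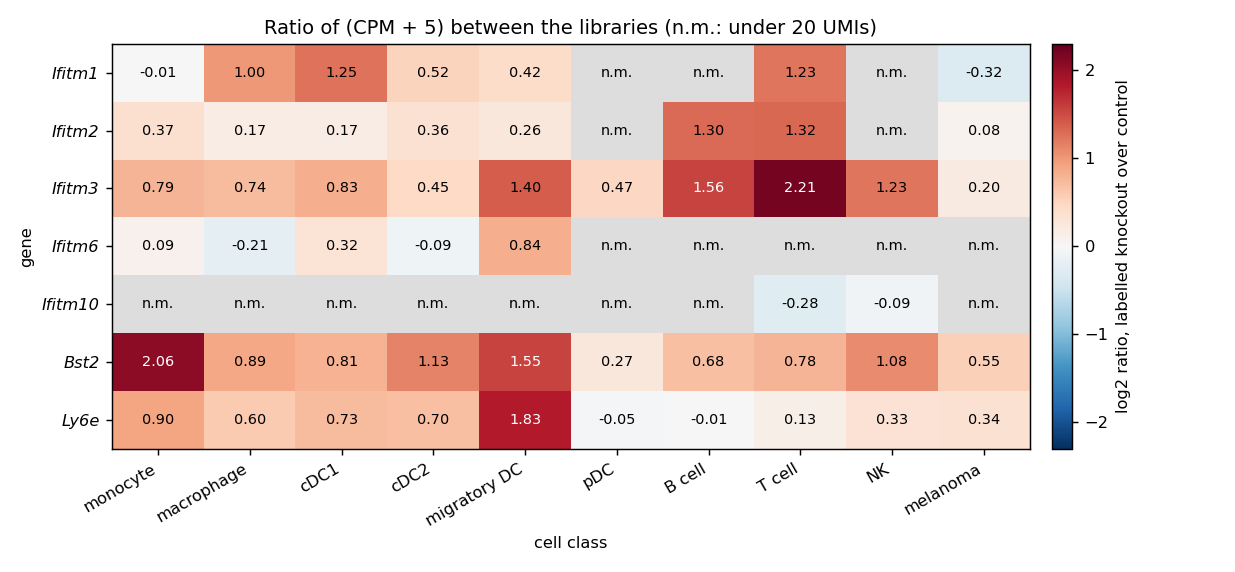
Each cell of the map gives the log2 ratio of (CPM + 5), library labelled knockout over control, of 1 gene (rows) in 1 cell class (columns); red is higher in the library labelled knockout, blue lower, and grey (n.m.) under 20 UMIs over both libraries. The row of Bst2 is positive in all 10 classes and highest in monocytes (2.06), whereas Ly6e lies at -0.05 in pDC and -0.01 in B cells.

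To compare levels by counted interferon transcripts, each phagocyte was thinned to 1000 UMIs and binned by its UMIs of the interferon list. The list contains neither the 7 genes nor Usp18. The load is a small count per cell, so a cell with 0 list UMIs may still have held such transcripts. Cells of the same bin can therefore differ in true load between the libraries. Of the thinned phagocytes 22.1% against 5.53% had 0 such UMIs, and 14.3% against 51.9% had 6 or more.

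Ly6e, Ifitm3 and Bst2 rose with the load within each library, and Ifitm2 little. In the control library Ly6e stood at 481 CPM in cells with 0 interferon-list UMIs and at 1536 CPM in cells with 6 or more, a ratio of 3.19 (2.68 to 3.82). The ratio was 2.66 (2.37 to 2.98) for Ifitm3, from 1202 to 3194 CPM, and 2.59 (1.86 to 3.62) for Bst2, from 153 to 397 CPM. It was 1.27 (1.06 to 1.51) for Ifitm2, from 726 to 921 CPM, and 0.805 (0.491 to 1.29) for Ifitm1. Phagocytes without any interferon-list UMI thus still held Ifitm3 and Ifitm2 at levels far above those of lymphocytes.

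In the phagocyte sum and in monocytes, the ratio of Bst2 at similar counted load was larger than that of Ifitm3. The order was reversed in macrophages with 0 list UMIs, at 1.44 for Bst2 and 1.58 for Ifitm3, with overlapping intervals. In phagocytes with 1 to 2 interferon-list UMIs Ifitm3 stood at 1542 against 1556 CPM, and in those with 3 to 5 at 1998 against 2159 CPM, and both ratios had intervals that include 1. Within each class alone most ratios of Ifitm3 lay above 1. In monocytes they were 1.35 (1.09 to 1.66) with 0 list UMIs, 1.34 (1.19 to 1.51) with 1 to 2 and 1.16 (1.05 to 1.29) with 3 to 5. In macrophages they were 1.58 (1.12 to 2.23), 1.02 (0.845 to 1.23) and 1.27 (1.07 to 1.52). Bst2 stood at 153 against 291 CPM with 0 list UMIs, 190 against 355 CPM with 1 to 2, 236 against 452 CPM with 3 to 5, and 397 against 975 CPM with 6 or more. All 4 intervals of its ratio lay above 1, the lowest from 1.23 to 2.89. Within monocytes its ratio ran from 2.13 to 2.84 over the bins, and within macrophages from 1.44 (0.856 to 2.41) to 2.02. The top bin is not matched, since its mean load was 9.85 against 18.4 UMIs.

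When the library labelled knockout was weighted to the control distribution of load, the phagocyte ratio of thinned levels went from 3.14 to 2.03 for Bst2, from 1.77 to 1.14 for Ifitm3, from 1.75 to 1.17 for Ly6e and from 1.27 to 1.08 for Ifitm2. Within monocytes the weighted ratios were 2.47, 1.29, 1.32 and 1.24, and within macrophages 1.60, 1.33, 1.12 and 1.13. The ratio of Bst2 was thus the largest in both classes after the weighting, as it was before, and all these ratios stayed above 1. The weighting is by counted load only and includes the top bin, which is not matched. The part of uneven true load within bins in what was left was not tested.

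Ifitm6 took another course. With 0 list UMIs its level was 151 CPM (115 to 195) against 37.3 CPM (12.1 to 87.1), and with 6 or more it was 246 against 252 CPM. The low value rests on 134 cells of the library labelled knockout, of which 49 were monocytes. Within monocytes, the class with the most Ifitm6, the ratio was 0.339 (0.0891 to 0.920) with 0 list UMIs. It was 0.665 (0.422 to 1.02) with 1 to 2 and 0.993 (0.718 to 1.37) with 3 to 5. Weighted to the control distribution of load, the ratio of Ifitm6 was 0.602 in the phagocyte sum and 0.754 in monocytes. In macrophages it was 0.443, on 22 against 19 UMIs at equal depth. The mix of monocytes and macrophages within a bin was not matched. Ifitm1 in cells with 0 list UMIs stood at 138 against 440 CPM; among monocytes of that bin, 5 cells that clustered with cDC2 held 36 of the 57 Ifitm1 UMIs of the library labelled knockout.

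In the classes with the highest constitutive levels, the differences with load were small beside counting error. Ly6e in B cells stood at 1951 against 1922 CPM with 0 list UMIs and at 2037 (1777 to 2325) against 2354 CPM (1996 to 2758) with 3 to 5. Bst2 in pDC stood at 3214 (2585 to 3951) against 3857 CPM (2898 to 5033) with 0 list UMIs and at 3323 against 3955 CPM with 3 to 5. These pDC bins hold 14 to 31 cells each.

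**Figure D3:**
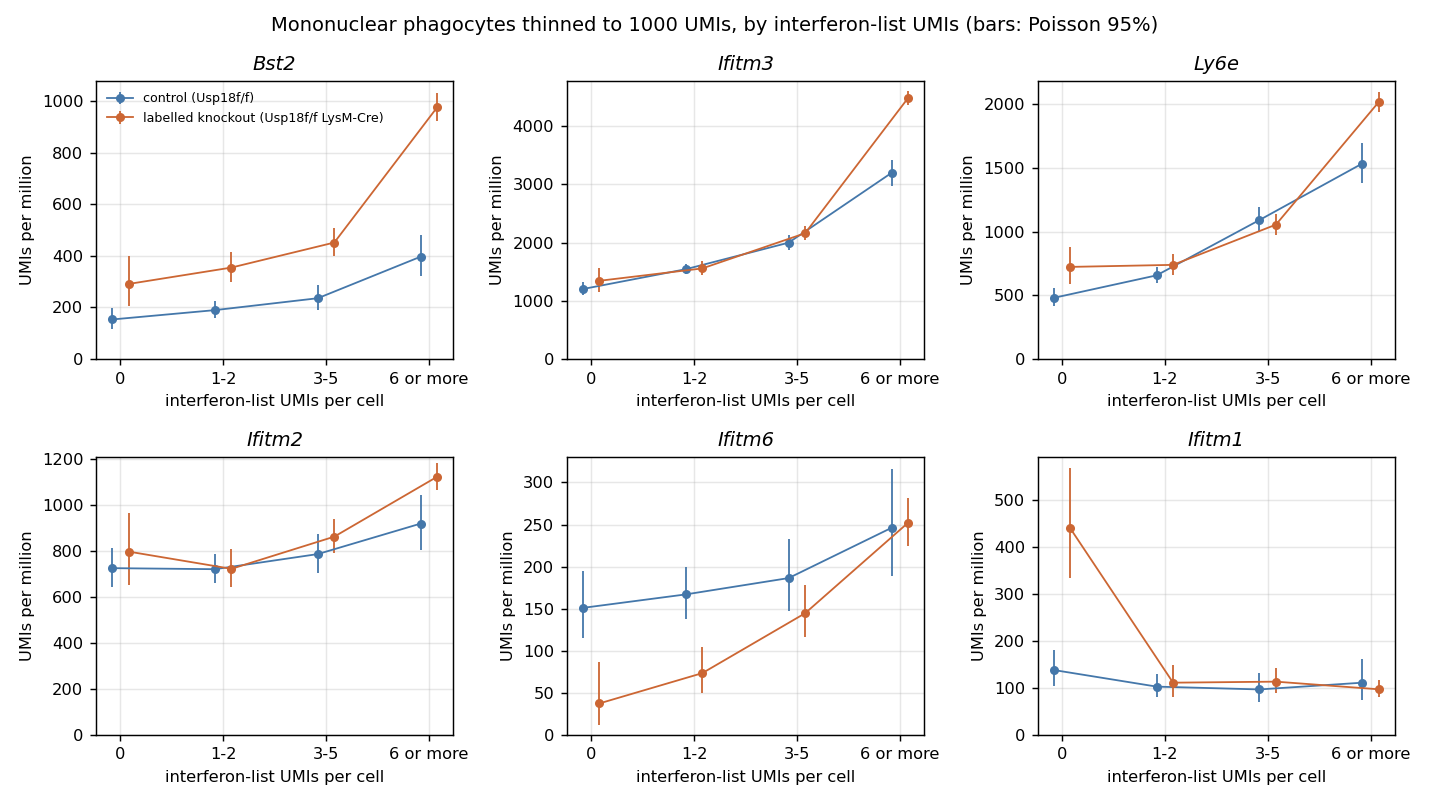
Levels in CPM of 6 genes in mononuclear phagocytes thinned to 1000 UMIs per cell, against the number of interferon-list UMIs in the cell, in the control library (blue) and the library labelled knockout (orange), with Poisson 95% bars. The lines of Ifitm3 overlap up to 3 to 5 UMIs (1998 and 2159), whereas those of Bst2 stay apart in every bin.

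Because the pools differed in sex, the ratios were also taken within cells with Xist and no Y-linked UMI and within cells with a Y-linked UMI and no Xist. Bst2 was higher in the library labelled knockout in both sexes and both phagocyte classes. In monocytes it stood at 194 against 629 CPM in cells with Xist and at 146 against 490 CPM in cells with Y-linked UMIs. In macrophages it stood at 390 against 673 CPM and at 308 against 569 CPM.

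Ifitm3 in monocytes was also higher in both, at 3064 against 4249 CPM with Xist and 2383 against 4366 CPM with Y-linked UMIs. In macrophages the sexes went opposite ways: 880 against 1807 CPM with Xist, but 834 against 741 CPM with Y-linked UMIs. Ly6e in macrophages stood at 524 against 979 CPM and at 552 against 635 CPM. Interferon-list transcripts summed to 2504 against 7570 CPM in the macrophages with Xist and to 2261 against 3559 CPM in those with Y-linked UMIs.

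Summed over phagocytes, Ifitm3 in cells with Y-linked UMIs had a log2 ratio of -0.13, although it was 0.87 in monocytes. Among those cells, monocytes made up 54.1% against 29.3%, and among the cells with Xist 53.1% against 59.5%. The cells with Y-linked UMIs of the library labelled knockout were few (102 monocytes and 246 macrophages), and how many mice they came from is not given in the sources used here. Genotype, sex and the single mice of each pool cannot be told apart.

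**Figure D4:**
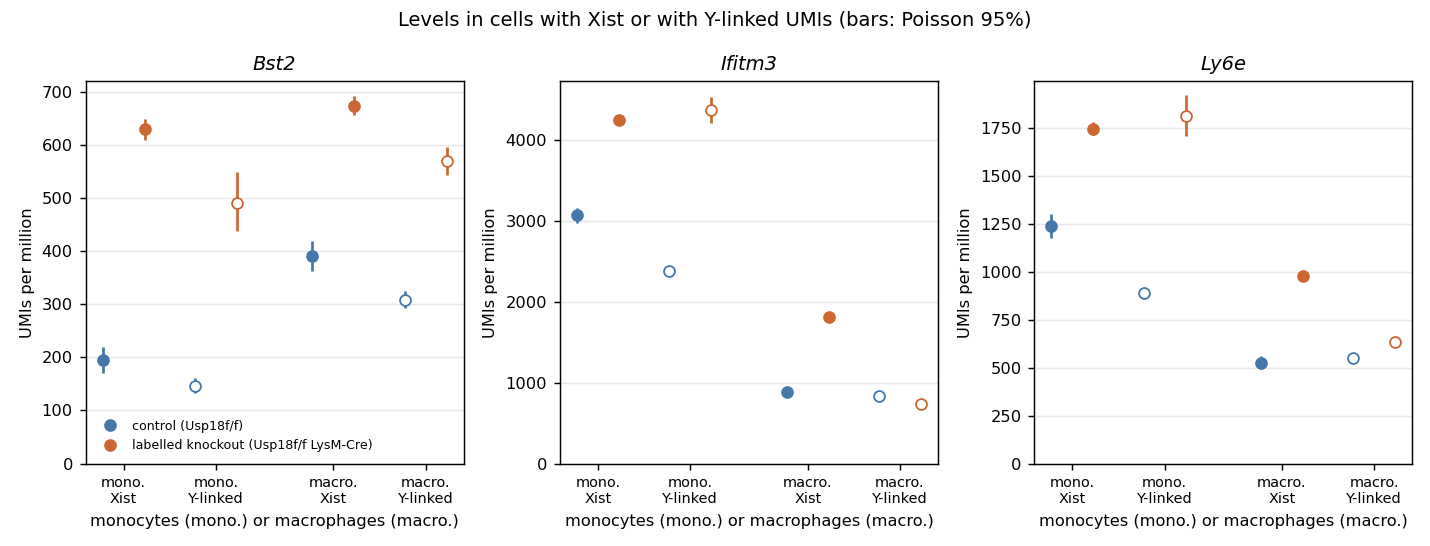
Levels in CPM of Bst2, Ifitm3 and Ly6e in monocytes and macrophages with Xist (filled) or with Y-linked UMIs (open), in the control library (blue) and the library labelled knockout (orange), with Poisson 95% bars. Bst2 is higher in the library labelled knockout in all 4 pairs, and Ifitm3 in 3, with 834 against 741 in macrophages with Y-linked UMIs.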

How the data were processed

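The authors deposited raw UMI counts per gene and barcode for called cells, made with Cell Ranger 3.0.1 and the genome build mm10, per the submitters' processing notes. The members, the lists and the rule for named genes were chosen with earlier results of these data known. Barcodes under 200 genes or over 10% mitochondrial UMIs were dropped, and the highest Scrublet scores were removed at 0.8% per 1000 barcodes, which left 6646 barcodes of the control library and 5452 of the other.

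Each barcode took the class with the highest mean of its marker shares, each scaled to the mean of the 50 highest barcodes, given at least 2 detected markers. It was left out as mixed (97 and 155 barcodes) where another lineage scored at least 0.5 of the top, and 359 and 182 had no class. T cells were divided by Cd8a or Cd8b1, Cd4 and Foxp3. No annotation by the authors was used.

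UMIs were summed per class and library. Ratios are of CPM with exact binomial 95% intervals; log2 ratios carry a pseudocount of 5 CPM. Levels have exact Poisson and shares of cells exact Clopper-Pearson 95% intervals, and a count of 0 allows up to 3 UMIs. With 1 library per group no test was made. The scripts were tested on simulated counts. Named genes were the 7, the listed and marker genes, Usp18, Lyz2, Xist and Y-linked genes, and the 3 genes with the most similar pattern to each member. Ptprc was added as the sorting marker after the data were seen. Alternatives were other filters, pseudocounts, clusters in place of gates (Leiden, resolution 1), either sex, thinning and the removal of free RNA. Python 3.11.15, scanpy 1.11.5 and scipy 1.17.1 were used.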

Additional observations from a re-analysis of the deposited data

Results flagged for a closer look

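Some ratios had opposite signs in Xist-carrying cells and in those with Y-linked UMIs, and these differences were not tested. As log2 ratios, library labelled knockout over control, Ifitm1 stood at 4.11 with Xist and -0.68 with Y-linked UMIs in cDC1, where only 18 control cells carried Xist. In cDC2 it stood at -0.14 and 1.19, with 15 cells with Y-linked UMIs in the library labelled knockout. It stood at 1.44 and -1.88 in macrophages, and at 0.45 and -2.07 in mononuclear phagocytes. Ifitm2 stood at 1.48 and -0.74 in cDC1, 0.42 and -0.23 in macrophages, and 0.38 and -0.23 in mononuclear phagocytes. Ifitm3 stood at 1.03 and -0.17 in macrophages and at 0.70 and -0.13 in mononuclear phagocytes. Ifitm6 stood at -0.28 and 0.81 in monocytes. The median over the members in mononuclear phagocytes was 0.57 and -0.18. Bst2 stood at 1.07 and -0.089 in NK cells. Ly6e stood at 0.63 and -0.25 in migratory dendritic cells and at 0.084 and -0.41 in B cells.

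The 22 neutrophils of the library labelled knockout were too few for the comparisons but held clear signal. They stood at 3958 CPM of Ifitm1, 4449 CPM of Ifitm2, 2429 CPM of Ifitm3, 437 CPM of Ifitm6 and 600.5 CPM of Ly6e. The 492 control neutrophils stood at 856, 1363, 447, 167 and 274 CPM.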

How the results depend on the processing

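In mononuclear phagocytes the log2 ratios of Bst2 (1.29), Ifitm3 (0.65), Ly6e (0.70) and the median of the measured members (0.43) kept their sign under every alternative run except the restriction to cells with Y-linked UMIs. There Bst2 was 1.18 and Ly6e 0.26, while Ifitm3 was -0.13 and the median -0.18. In cells with Xist Bst2 was 1.07, Ifitm3 0.70 and the median 0.57. At most 5% mitochondrial UMIs gave 1.56 for Bst2, 0.59 for Ifitm3 and 0.38 for the median, and no doublet removal a median of 0.19. Leiden clusters gave 1.37, 0.72, 0.81 and 0.56 in the order above, and thinning to 1000 UMIs 1.63, 0.82, 0.80 and 0.57. Without the interferon-high monocyte cluster, an alternative added after seeing the data, they were 1.07, 0.48, 0.57 and 0.34. The median was 0.21 with no filter on UMIs and 0.62 as the mean of monocytes and macrophages.

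Signs of ratios whose interval leaves out 0 also turned elsewhere, and the cause was not tested. In cells with Y-linked UMIs these were Bst2 in NK cells (-0.089), Ifitm1 in cDC1 (-0.68), macrophages (-1.88) and migratory dendritic cells (-0.84), Ifitm2 in T cells (-0.31), cDC1 (-0.74), macrophages (-0.23) and mononuclear phagocytes (-0.23), Ifitm3 in T cells (-0.27) and macrophages (-0.17), and Ly6e in migratory dendritic cells (-0.25). Of these values, those of Bst2 in NK cells, Ly6e in migratory dendritic cells and Ifitm2 and Ifitm3 in T cells have intervals that include 0. In cells with Xist Ifitm1 in cDC2 turned to -0.14. Ratios within counting error of 0 turned too, among them Ifitm1 in mononuclear phagocytes (0.04 to -2.07) with Y-linked UMIs and Ifitm6 in monocytes (0.09 to -0.28) with Xist. Without doublet removal Ifitm1 in T cells turned to -0.12 and in melanoma cells to 0.39, and in melanoma cells also with clusters (0.33) and without the cell richest in it (0.049). Ifitm6 in mononuclear phagocytes turned to 0.020 when thinned. At most 5% mitochondrial UMIs left 7 control pDC, so the pDC peak of Bst2 could not be ranked there. No paired analysis was possible because each group has 1 library.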
